A study of Mus musculus with 72 samples.

Results

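The 8 genes described here are markers of astrocytes: Gfap, Vim, S100b, Aqp4, Aldoc, Slc1a2, Slc1a3 and Gja1. They were taken by symbol from the array's platform annotation, which assigned them 30 probe sets out of 45037 on the array, and 8 genes out of 18193 named there. Gfap and Vim had 3 probe sets each, S100b and Aldoc 2, Aqp4 3, Slc1a2 5, and Slc1a3 and Gja1 6. Another 1 probe set shared by a member and a second gene was left out. RNA from brain, kidney, heart and liver of female SAMP1 mice, a senescence-accelerated inbred strain, had been hybridised to 72 mouse expression arrays. From 4 weeks of age the mice received a control diet, Q10 (oxidised coenzyme Q10, ubiquinone) or QH2 (reduced coenzyme Q10, ubiquinol), each supplement at an estimated intake of 500 mg per kg body weight per day. They were killed after 6 or 14 months on the diet, at 7 or 15 months of age, with 3 mice per diet and duration. This gave 24 groups of 3 arrays, and every group, controls included, was of the same strain and sex. No SAMR1 or other normally ageing strain was among the arrays used here. The labels do not say whether the 4 tissues came from the same mice. Nor do they say how the mice of each diet were spread over cages.

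Astrocytes are the glial cells that fill the space between neurons, synapses and vessels. They clear glutamate from synapses through the transporters Slc1a2 (GLT-1) and Slc1a3 (GLAST), pass ions and small molecules to one another through gap junctions of Gja1 (connexin 43), and move water through Aqp4 (aquaporin 4) at their vascular end-feet. Gfap and Vim encode intermediate filaments of the cytoskeleton, and both are known to increase in reactive astrocytes, the state seen after injury and in many ageing brains. S100b encodes a secreted calcium-binding protein and Aldoc the brain form of the glycolytic enzyme aldolase. Bergmann glia, the radial astrocytes of the cerebellum, carry much Slc1a3, and Aldoc is shared with a subset of Purkinje neurons. Several of these genes are also used outside the nervous system: Vim by fibroblasts, endothelium and leukocytes, Gja1 by heart muscle cells, Aqp4 by kidney collecting duct, and S100b by fat cells.

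The promoters of Vim and Gfap are shown because these 2 filament genes are the usual markers of reactive astrocytes and both rose in the brain arrays below. They are the 250 bases upstream of each RefSeq gene start (GRCm38.p6), read 5′ to 3′ on the gene's strand, and capitals mark a TATA box or CCAAT box. The Vim window is chr2:13574061-13574310 on the plus strand, just before the gene at 13574311 to 13582826. The Gfap window is chr11:102897201-102897450 on the minus strand, before the gene at 102887336 to 102897200.
Vim: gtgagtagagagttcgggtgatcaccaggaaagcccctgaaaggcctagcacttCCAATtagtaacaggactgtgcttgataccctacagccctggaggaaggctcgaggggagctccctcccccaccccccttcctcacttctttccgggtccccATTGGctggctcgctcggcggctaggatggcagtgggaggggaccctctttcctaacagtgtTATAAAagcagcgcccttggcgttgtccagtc
Gfap: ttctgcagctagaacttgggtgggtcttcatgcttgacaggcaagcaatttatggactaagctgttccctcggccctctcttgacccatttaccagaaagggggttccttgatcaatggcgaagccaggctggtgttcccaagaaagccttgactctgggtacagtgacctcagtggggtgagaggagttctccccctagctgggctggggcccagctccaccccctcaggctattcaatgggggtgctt
The 5 letter patterns searched on both strands were the TATA box (TATAAA), the GC box (GGGCGG), the CCAAT box (CCAAT), an AP-1 site (TGANTCA) and a STAT site (TTCNNNGAA). The Vim window held TATAAA 32 to 27 bases before the gene start, a CCAAT 196 to 192 bases before it, and a CCAAT on the other strand, read as ATTGG, 94 to 90 bases before it. The Gfap window held none of the 5 patterns. Among 32851 promoter windows of the same length, 12.4% held the TATA box, 33.8% the CCAAT box, 32.7% the GC box, 6.75% the AP-1 site and 7.02% the STAT site. RefSeq windows were found for 7 of the 8 genes, and the match of a pattern describes the letters only.

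The deposited values were linear signal intensities that had not been levelled between arrays. They were quantile normalised within each tissue, and signals below are on that scale unless stated. Each gene is represented by its brightest probe set in the tissue. In brain, 28 of the 30 probe sets and all 8 genes lay above the filter on low signal, the 40th percentile of mean signal, while 18 probe sets (7 genes) did in kidney, 16 (7 genes) in heart and 14 (6 genes) in liver. Because probe sets differ in their response to RNA, no signal is set against that of another gene.

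The brain arrays of the 2 durations did not hold the same regions. Gabra6, the GABA receptor subunit of cerebellar granule cells, gave 1.82 to 63.9 (median 11.1) on the 9 arrays at 6 months and 2183 to 2669.9 (median 2367) on the 9 arrays at 14 months. Pcp2, a Purkinje cell gene, gave 1.06 to 46.5 at 6 months and 1498 to 2033 at 14 months. Cbln3, a cerebellin of granule cells, gave 2.89 to 28.1 and 1080.3 to 1487. All 7 measured cerebellar marker genes were called higher at 14 months, and their summed signal was 2096 to 2932 against 12810 to 15367. Gabra6, Pcp2 and Cbln3, which define the cerebellum, were thus far lower on all 9 arrays at 6 months, although those arrays were labelled brain like the others. Of 9 measured hypothalamus and brainstem markers, 7 were higher at 14 months. The 6 measured striatal markers did not differ between durations by the test, but their summed signal ranged from 1333 to 6235 at 6 months and only from 2700.0 to 3351 at 14 months. In brain, then, duration on the diet and the region content of the sample cannot be told apart, and this holds for every brain difference between durations below.

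**Figure D1:**
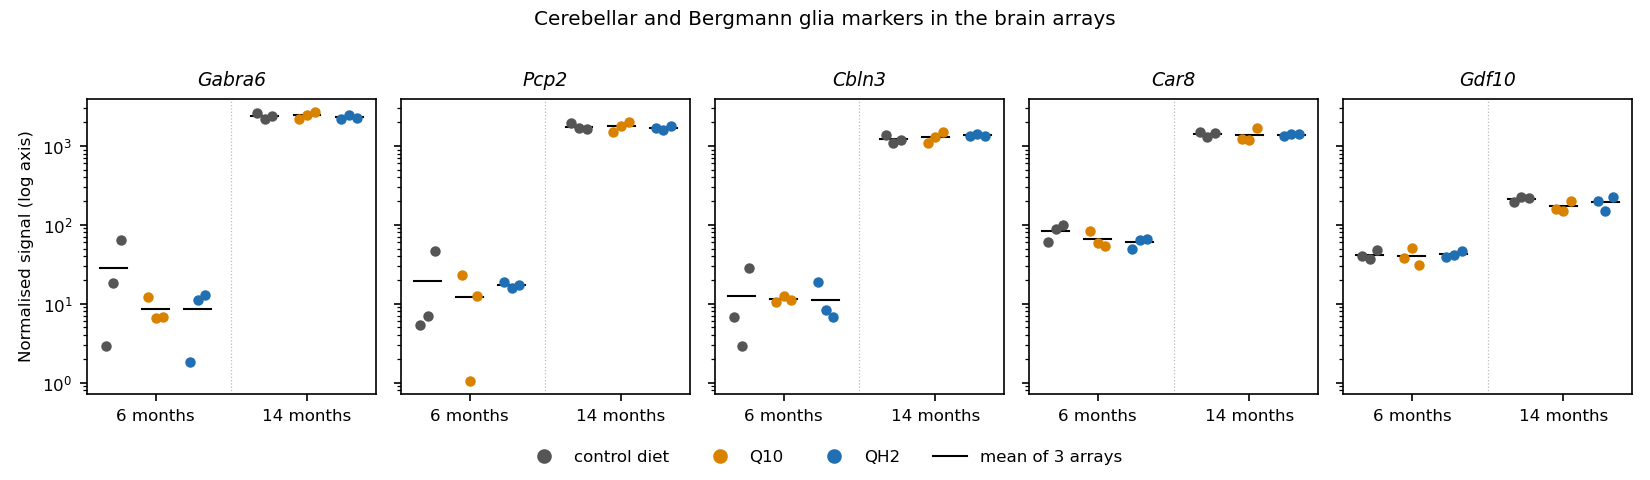
Normalised signal (log axis) of 5 cerebellar genes, Gabra6, Pcp2, Cbln3, Car8 and the Bergmann glia gene Gdf10, on the 18 brain arrays. Each point is 1 array, coloured by diet, and short lines are means of 3 arrays; the 9 arrays at 6 months lie below the 9 arrays at 14 months for each gene, with Gabra6 at 1.82 to 63.9 against 2183 to 2669.9.

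Of the 8 astrocyte genes, 7 gave higher signals in brain at 14 than at 6 months when the 3 diets were averaged, and Slc1a2 gave a slightly lower one. The median change over the 8 genes was 0.643 on the log2 scale, against 0.012 over all 27022 probe sets tested. In that comparison 56.2% of all probe sets passed an adjusted p of 0.05 (limma, Benjamini-Hochberg), 28.5% higher and 27.7% lower, so passing the test was the usual outcome. Of the 28 member probe sets, 17 were called higher and 5 lower. These are bulk samples, in which fewer cells of a type and less RNA per cell cannot be told apart. The direction of Slc1a2 depended on scaling: it changed by -0.11 after quantile normalisation, 0.04 when arrays were scaled to a common median and 0.27 on the values as deposited, where the median of all probe sets was itself 0.193 and 0.419. The share of called probe sets that were higher was 50.7%, 74.5% and 88.8% under these 3 scalings.

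**Figure D2:**
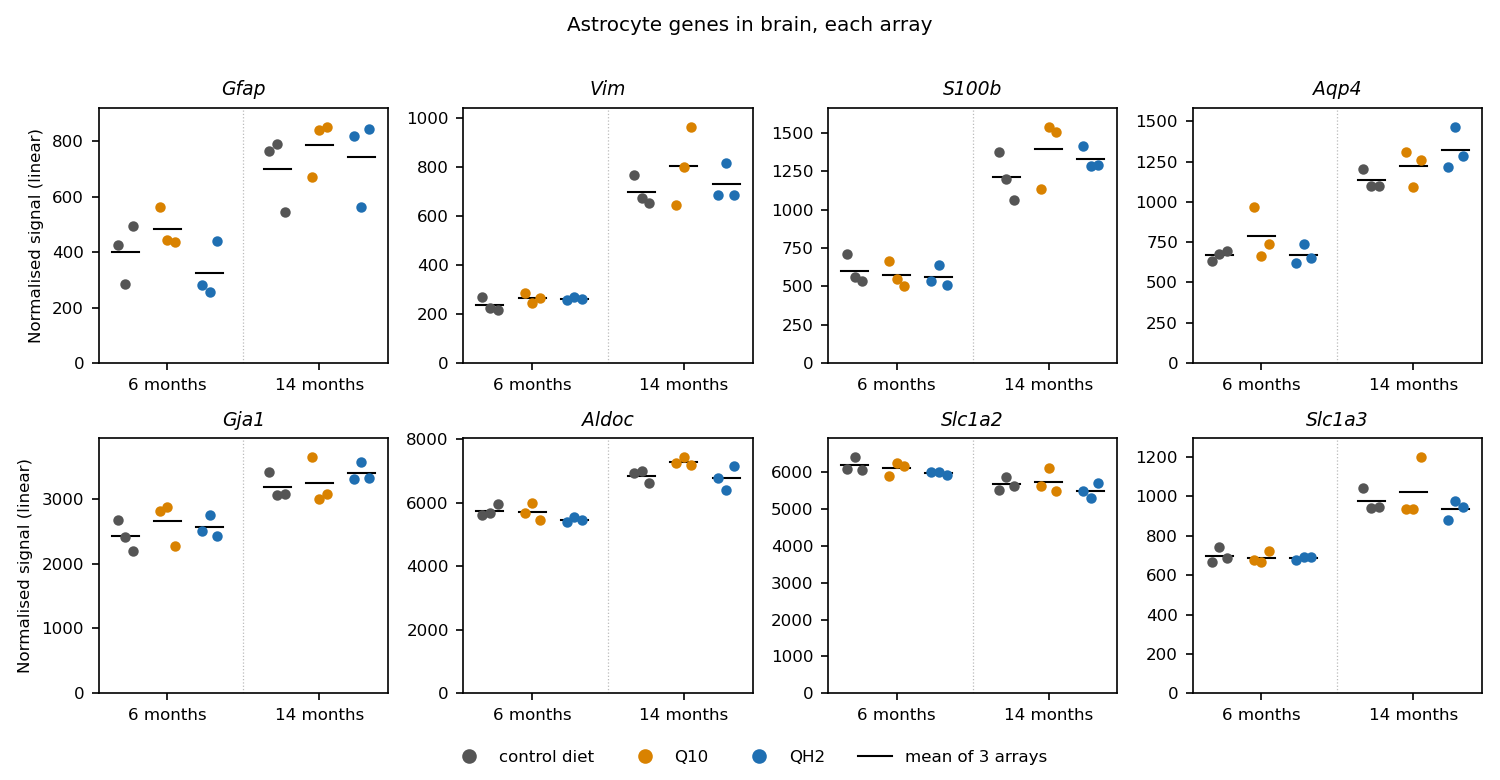
Normalised signal of the brightest probe set of each of the 8 genes on the 18 brain arrays, by diet and duration; points are arrays and short lines the means of 3 arrays, with each panel's axis starting at 0. Vim lay between 217 and 285 at 6 months and between 644 and 963 at 14 months, whereas Slc1a2 overlapped between durations.

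Vim, the vimentin filament gene, changed most. On the control diet its signals were 268, 227 and 217 at 6 months and 765, 673 and 654 at 14 months. On Q10 they were 285, 245 and 266, then 644, 798 and 963. On QH2 they were 257, 270.0 and 262, then 687, 814 and 685. Every array at 14 months lay above every array at 6 months. The averaged change was 1.53 ± 0.07 on the log2 scale (SE; adjusted p = 6.03e-12, limma), a 2.89-fold difference, with 1.56 on control diet, 1.57 on Q10 and 1.46 on QH2. Of all tested probe sets 0.862% had a greater rise. Both other Vim probe sets were also called higher, by 1.26 and 1.09.

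Gfap, the filament most used to recognise astrocytes, also rose but scattered more. Its signals on the control diet were 424, 285 and 495 at 6 months and 764, 790.4 and 544 at 14 months. On Q10 they were 564, 445 and 436, then 669.7, 842 and 851. On QH2 they were 280.1, 258 and 439, then 819, 563 and 843. The 6-month arrays reached 564, on the first Q10 array. At 14 months the third control array, at 544, and the second QH2 array, at 563, lay below that. The durations overlapped through these arrays only, which were on different diets. The averaged change was 0.91 ± 0.12 (adjusted p = 5.43e-06), or 1.88-fold, with 0.82 on control diet, 0.71 on Q10 and 1.20 on QH2. Its standard deviation within groups was 0.319 on the log2 scale, above the median of 0.203 over all probe sets and the largest of the 8 genes. The other Gfap probe sets gave 0.97 and 1.20, both called and both without overlap between durations. The call on the control diet was lost without the second control array of 6 months (0.59), and on Q10 it was lost without the second or the third 6-month array (0.66 and 0.64) or the second or the third 14-month array (0.66 and 0.65).

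S100b, the calcium-binding protein, rose on every diet. On the control diet it gave 714, 561 and 535 at 6 months and 1375, 1199 and 1062 at 14 months. On Q10 it gave 666, 551 and 504, then 1134, 1540.5 and 1509, and on QH2 533, 638 and 511, then 1412, 1284 and 1291. No 6-month array reached the lowest 14-month array. The averaged change was 1.18 ± 0.08 (adjusted p = 5.98e-10; 2.26-fold). The dimmer S100b probe set changed by 0.58 and was also called.

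Aqp4, the water channel, and the gap junction gene Gja1 rose by smaller amounts. Aqp4 ran from 621 to 967 (median 675.5) at 6 months and from 1094 to 1465 (median 1218) at 14 months, a change of 0.79 ± 0.06 (adjusted p = 8.56e-09) without overlap. The highest 6-month array, at 967, was the first Q10 array, while the other 8 lay at or below 741. A second Aqp4 probe set was called at 0.50 and the third gave -0.02 (adjusted p = 0.861). Gja1 ran from 2198 to 2874 (median 2505) at 6 months and from 2999.9 to 3640.0 (median 3303) at 14 months, a change of 0.37 ± 0.05 (adjusted p = 1.07e-05). Its probe sets disagreed. Another 3 gave 0.38, 0.77 and 0.92, all called higher, while 2 gave -0.12 (adjusted p = 0.0925) and 0.00 (adjusted p = 0.996). On Q10 the Gja1 call was lost without the third 6-month array (0.18) or the first 14-month array (0.20).

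The metabolic gene Aldoc and the glutamate transporters differed in direction. Aldoc ran from 5411 to 5984 (median 5617) at 6 months and from 6401 to 7445 (median 7014) at 14 months, a change of 0.30 ± 0.03 (adjusted p = 2.25e-08). It had the smallest spread within groups, 0.051 on the log2 scale, so that this 1.24-fold difference left the durations apart. Slc1a3 (GLAST) ran from 665 to 744 (median 689) at 6 months and from 877 to 1199 (median 947) at 14 months, a change of 0.49 ± 0.05 (adjusted p = 9.75e-08). The groups did not overlap for this probe set, but of 3 other Slc1a3 probe sets above the filter 1 was called lower (-0.16, adjusted p = 0.0258) and 2 were not called (-0.13 and 0.12). Slc1a2 (GLT-1) ran from 5886 to 6401 (median 6048) at 6 months and from 5288 to 6112 (median 5631) at 14 months. The durations overlapped, and the averaged change was -0.11 ± 0.03 (adjusted p = 0.00166). Of the dimmer Slc1a2 probe sets 3 were called lower, at -1.25, -0.74 and -0.30, and the other was not (-0.26, adjusted p = 0.318).

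Between 6 and 14 months the brightest probe sets of 6 genes, Vim, S100b, Aqp4, Aldoc, Slc1a3 and Gja1, did not overlap, all of them higher at 14 months. Over the 28 probe sets 12 were higher without overlap and 1 lower, against 8.63% and 9.03% of all probe sets tested. Within each diet the same 7 genes were called higher; the background was 32.8% called on control diet, 28.6% on Q10 and 34.9% on QH2. Slc1a2 was called lower on control diet (-0.12, adjusted p = 0.0485) and on QH2 (-0.12, adjusted p = 0.0482) but not on Q10 (-0.09, adjusted p = 0.165), and each of those 2 calls was lost on leaving out any array of its 6 but 1 (the second control array of 14 months and the third QH2 array of 14 months). No interaction of diet with duration was called for the 8 genes, against 0 probe sets for Q10 and 8 (0.0296%) for QH2 over the whole array, and the smallest adjusted p was 0.979 and 0.911. At an unadjusted p under 0.05 there were 0 and 3 of the 28 member probe sets, against 4.96% and 6.32% of all probe sets.

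**Figure D3:**
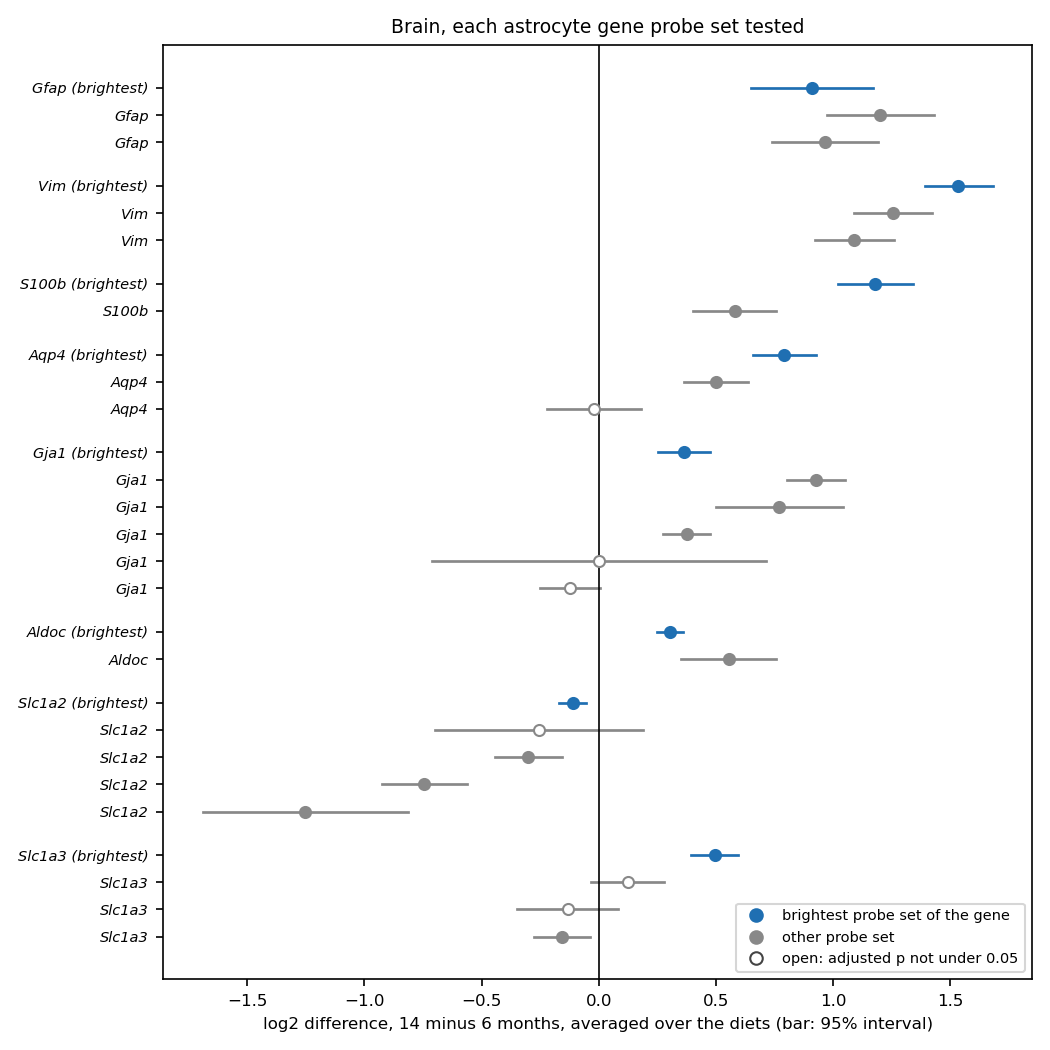
Change from 6 to 14 months in brain (log2, averaged over the 3 diets) of the 28 member probe sets above the filter, with 95% intervals from limma; filled points passed an adjusted p of 0.05. The 3 probe sets of Vim lie between 1.09 and 1.53, and those of Slc1a2 lie at or below -0.11.

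Markers of other cell classes moved in the same comparison, and their part in the change of the 8 genes was not tested. Of 6 genes listed as Bergmann glia markers 4 were called higher. Gdf10, a growth factor of the BMP family, ran from 31.3 to 51.4 at 6 months and from 149 to 228 at 14 months. Its change was 2.18 ± 0.10. The listed Slc1a6 changed by 2.41 ± 0.14, but it is the glutamate transporter of Purkinje neurons rather than of Bergmann glia. The summed signal of the 6 genes, Slc1a6 included, was 2236 to 3014 at 6 months and 3584 to 3989 at 14 months. Oligodendrocyte markers rose in 10 of 11 genes and fell in 1 (median 0.606). Neuronal markers rose in 3 and fell in 6 of 12 (median -0.119). Microglia markers rose in 5 and fell in 2 of 13 (median -0.0136), endothelial and pericyte markers rose in 5 and fell in 1 of 10 (median 0.334), and choroid plexus and ependyma markers rose in 8 of 9 (median 0.519). The Actb 3′ to 5′ signal ratio, a measure of RNA integrity, was 1.75 to 1.95 at 6 months and 1.66 to 1.79 at 14 months.

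Of 30 further astrocyte genes, 29 were measured and 22 were called higher at 14 months in brain, with none called lower and a median of 0.264. The 6 with the smallest p were Aldh1a1, a retinaldehyde dehydrogenase (1.52 ± 0.09), the sodium bicarbonate transporter Slc4a4 (0.65 ± 0.05), the neurotensin receptor Ntsr2 (0.34 ± 0.04), Ndrg2 (0.36 ± 0.04), the second astrocyte connexin Gjb6 (0.53 ± 0.06) and the matrix protein Sparcl1 (0.34 ± 0.04). Aldh1l1, the folate enzyme often used as a pan-astrocyte marker, gave 0.14 ± 0.07 and was not called (adjusted p = 0.078). Of 31 genes known from reactive astrocytes, 22 were measured above the filter, 17 were called higher and none lower (median 0.517). They were led by the metallothioneins Mt2 (0.95 ± 0.07) and Mt1 (0.82 ± 0.07), the class I antigen H2-D1 (1.28 ± 0.13), the transcription factor Stat3 (0.53 ± 0.06), the proteoglycan Srgn (0.72 ± 0.10) and the adhesion receptor Cd44 (0.77 ± 0.12). The filament gene Nes, a usual companion of Vim, gave -0.02 ± 0.15 and was not called. Many of the reactive genes are also expressed by microglia or vessels.

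No diet difference of the 8 genes in brain passed the test. No member was called in the comparisons of Q10 or QH2 with control, or of QH2 with Q10, at 6 or 14 months by limma (smallest adjusted p for a gene 0.519). Over all probe sets 0 were called in 5 of the 6 comparisons and 3 (0.0111%) in QH2 against control at 14 months. At an unadjusted p under 0.05 the 28 member probe sets numbered 0 and 0 for Q10 against control at 6 and 14 months, 2 and 1 for QH2 against control, and 2 and 2 for QH2 against Q10. Over all probe sets the shares in the same order were 6.11% and 5.28%, 8.56% and 4.99%, and 7.66% and 4.74%. Comparisons at 1 duration share arrays, so they are given side by side. The gene changes lay between -0.07 and 0.29 for Q10 against control at 6 months and between 0.02 and 0.20 at 14 months. They lay between -0.31 and 0.15 for QH2 against control at 6 months and between -0.07 and 0.22 at 14 months. For QH2 against Q10 they lay between -0.59 and 0.00 at 6 months and between -0.13 and 0.12 at 14 months. The 95% intervals of single genes were 0.192 to 0.906 wide on the log2 scale, narrowest for Aldoc and widest for Gfap.

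The pair with the greatest diet difference was Gfap in QH2 against Q10 at 6 months. Its signals were 280.1, 258 and 439 on QH2 and 564, 445 and 436 on Q10, with control at 424, 285 and 495. QH2 and Q10 overlapped by the third QH2 array. The difference was -0.59 ± 0.22 with a 95% interval of -1.05 to -0.144 (unadjusted p = 0.0125, adjusted p = 0.519, limma). At 14 months the same difference was -0.10. The region content of the 6-month arrays moved as well: the summed striatal signal was 6235, 5516 and 1359 on the 3 QH2 arrays, 1333, 1804 and 5099 on the Q10 arrays and 6135, 4180.0 and 1690.0 on the control arrays, in replicate order. Its part in the Gfap difference was not tested beyond a fit with that sum as covariate, in which the difference was -0.43 ± 0.18 (adjusted p = 0.664, limma).

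Other diet differences were small. Aldoc in QH2 against Q10 at 14 months was -0.11 (unadjusted p = 0.0304, adjusted p = 1.00), with signals of 6785, 6401 and 7154 on QH2 all below 7253, 7445 and 7201 on Q10. Aqp4 in QH2 against control at 14 months was 0.22 with a 95% interval of -0.0139 to 0.452, and 1218, 1465 and 1284 all lay above 1206, 1097 and 1097. Groups did not overlap in 5 of the 48 combinations of gene and diet comparison, against 11.5% of the same combinations over all probe sets. For a single value with 3 arrays against 3 an exact two-sided permutation test cannot go below p = 0.10. Neither the further astrocyte list nor the reactive list had a gene called in any brain diet comparison.

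**Figure D4:**
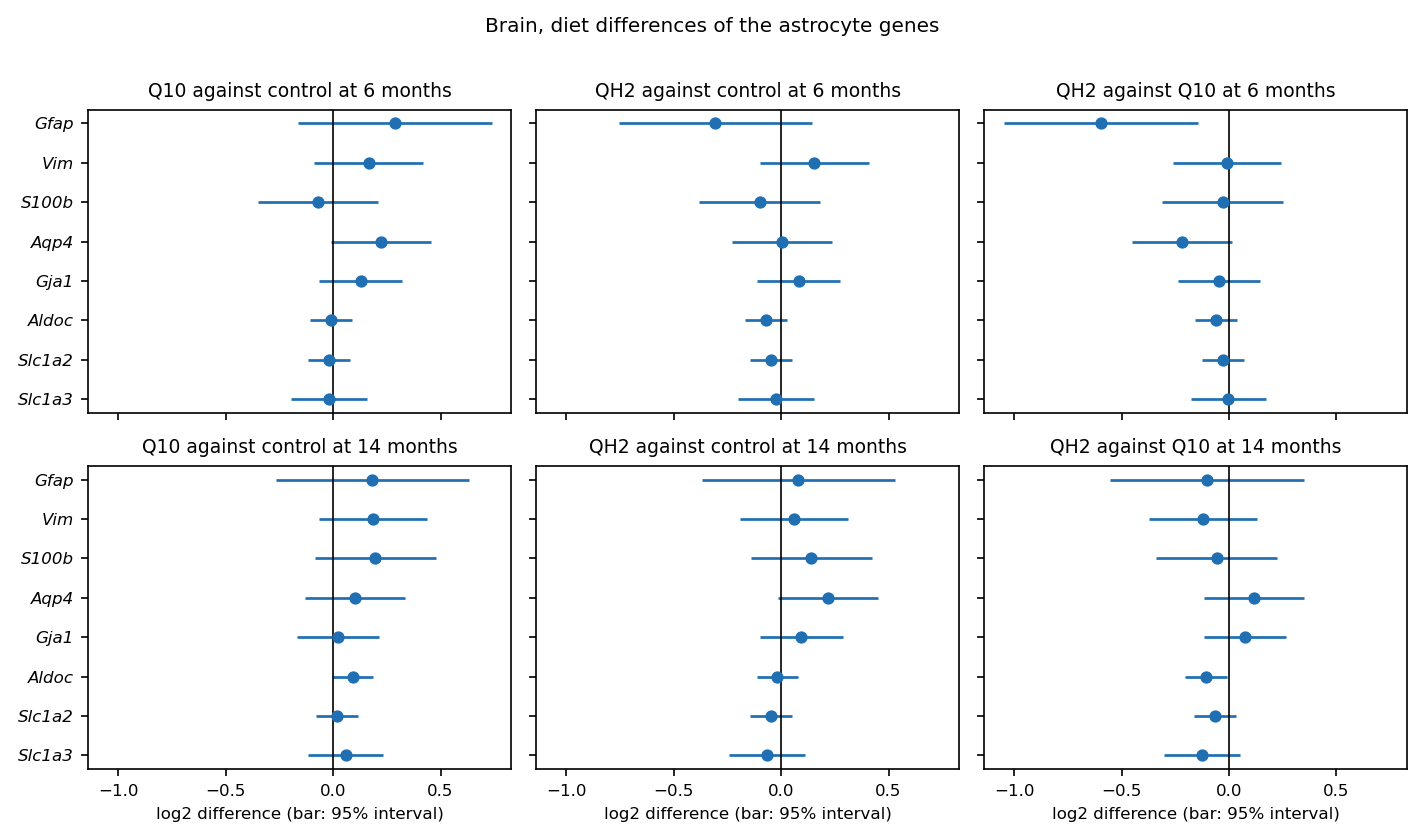
Diet differences of the 8 genes in brain (log2) with 95% intervals from limma, in 6 panels for the 3 diet comparisons at 6 months (top) and 14 months (bottom). None passed an adjusted p of 0.05; the interval farthest from 0 is Gfap for QH2 against Q10 at 6 months, -1.05 to -0.144.

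Across the 18 brain arrays the 8 genes fell into likenesses dominated by the split between durations, which all points share. Vim and S100b had a Pearson r of 0.975, and 0.700 after group means were taken off. Vim and Slc1a3 had 0.955 and 0.614, whereas Gfap and Vim had 0.823 and 0.138, and Gfap and Gja1 had 0.656 and -0.257. The genes most like Vim over the 18 arrays were Syt2, a synaptotagmin (0.987), Nupl1 (0.986) and Pvalb, the parvalbumin of fast neurons (0.985), and the same Syt2 (0.982) and Pvalb (0.980) were most like S100b with H2-Bl (0.978). Gfap was most like Map4 (0.959, and 0.915 within groups), Ckap4 (0.954 and 0.941) and Cmtm5 (0.947 and 0.767). Aqp4 was most like Selenom (0.978), Abhd3 and Ube2e3, Gja1 most like Svip (0.971), Uchl5 and Nudcd2, and Aldoc most like Timp4 (0.954), Kank2 and Cgnl1. Slc1a3 was most like Btg1 (0.959), Vim and Ergic1. Slc1a2 was most like Supt5 (0.905), Pdlim7 and Spata2l.

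Set beside the other tissues, 6 of the 8 genes were higher in brain than in kidney, heart and liver alike by their brightest brain probe set. In a quantile fit over all 72 arrays, brain was higher than kidney for 7 genes, than heart for 6 and than liver for 7, where 37.2%, 39.9% and 41.8% of all probe sets were called higher in brain. Dimmer Slc1a2 probe sets disagreed against liver. One was lower in brain (log2 -1.33 ± 0.28, adjusted p = 2.18e-05, limma) and another was higher (3.56 ± 0.22). Gfap in kidney, Slc1a2 in heart and S100b and Slc1a3 in liver lay below the filter of those tissues, so no fold is given for them. Slc1a2 was 160.0-fold higher in brain than in kidney, S100b 44.7-fold, Slc1a3 32.4-fold, Aldoc 29.1-fold and Aqp4 6.53-fold. These sizes depended on scaling: with arrays scaled to a common median, the log2 difference fell from 7.32 to 6.37 for Slc1a2 and from 4.86 to 3.81 for Aldoc. The exceptions were Vim and Gja1. Vim was 1.68-fold lower in brain than in kidney (log2 -0.75 ± 0.13) and 5.45-fold lower than in heart (-2.45 ± 0.13), and differed from liver by 0.07 ± 0.13 (adjusted p = 0.596). The other Vim probe sets differed from liver by 0.34 (adjusted p = 0.0185, limma) and 0.11 (adjusted p = 0.484). With the deposited values the differences of Vim from kidney and liver were -0.35 (adjusted p = 0.0669) and 1.32 (adjusted p = 3.91e-10). Gja1 was lower in brain than in heart by 0.50 on the log2 scale, with mean signals of 2930.0 and 4116, by 0.69 on the deposited values and by 1.84 with arrays scaled to a common median. Connexin 43 is known as the main connexin of the intercalated discs of heart muscle.

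**Figure D5:**
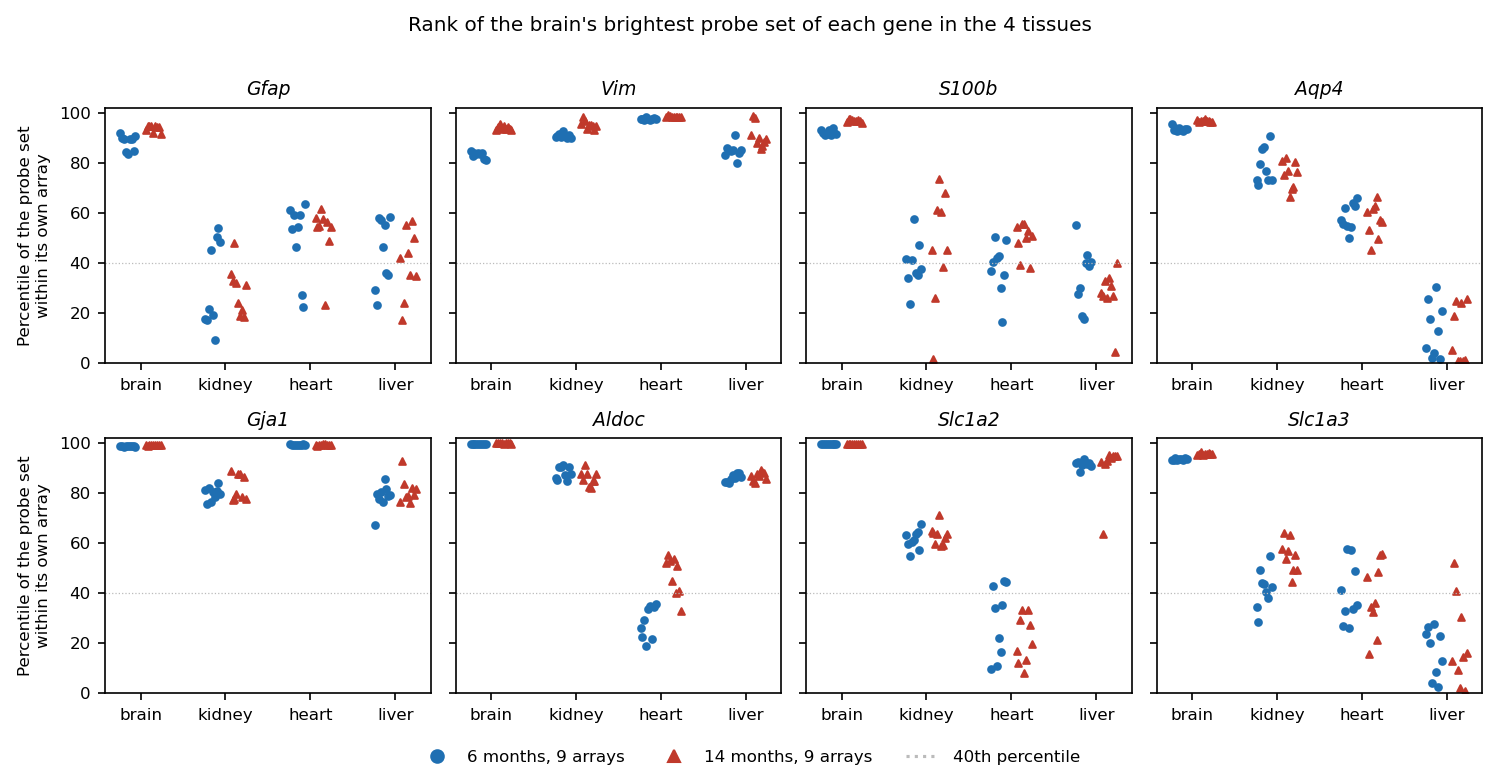
Percentile of each gene's brain probe set within its own array, for 72 arrays of 4 tissues; circles are 6 months and triangles 14 months, and the line marks the 40th percentile. In brain the medians run from 88.9 for Vim to 99.8 for Aldoc and Slc1a2.

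Outside brain the gene that was called was mostly Vim. In kidney 2 of 7 genes were called higher at 14 than at 6 months averaged over diets, where 40.9% of all probe sets were called. Vim signals were 337 to 496 at 6 months and 528 to 2249 at 14 months without overlap (1.10 ± 0.15, adjusted p = 1.84e-05), and Slc1a3, at 46.6 or lower on every kidney array, changed by 0.96 ± 0.24 (adjusted p = 0.00459). Macrophage markers moved too, with 7 of 11 called higher: their summed signal on control, Q10 and QH2 was 2625 to 3114, 3383 to 4001 and 2811 to 3440.0 at 6 months and 3314 to 7068, 4251 to 14510.0 and 3009 to 4090.0 at 14 months. Their part in the Vim change was not tested. By diet, Vim in kidney changed by 0.82 on control (adjusted p = 0.0475), where 9.38% of all probe sets were called, and by 1.74 on Q10 (28.2% called), and Slc1a3 by 1.53 on Q10. On QH2, where 10.2% were called, no member was. In heart, where 18.8% of all probe sets were called, Vim gave 0.37 ± 0.12 (adjusted p = 0.0310) by its brightest probe set and 0.78 and 0.66 by the others. Of 12 macrophage markers tested 2 were called higher and 1 lower, with sums of 2570.0 to 4050.0 at 6 months and 2043 to 5768 at 14 months, and their part in the Vim change was not tested. Aldoc was also called (1.23 ± 0.33, adjusted p = 0.0118), at signals of only 2.45 to 7.86 against 6.75 to 19.4. Its 6-month mean of 5.39 lay below the filter at 8.96, so it was tested only through its 14-month arrays and its call is no support. The call of the brightest Vim probe set in heart was lost, at 0.32 to 0.37, without the second or the third control array, the third Q10 array or the second or the third QH2 array of 6 months, and without the first or the third control array or the second QH2 array of 14 months. The brightest Gja1 probe set in heart gave 4058 to 5898 at 6 months and 3329 to 5866 at 14 months and was not called (-0.03, adjusted p = 0.821), but another probe set was called lower (-1.55 ± 0.25), and 2 more were called higher on QH2 (1.51 and 0.75). By diet, Vim (0.73) was called on Q10, where 10.6% of all probe sets were, as was Aldoc (1.79) with the same limit. Over the 16 member probe sets on Q10, 4 were called higher and 2 lower, with changes from -2.63 to 1.79. Neither of the 2 called lower was the brightest of its gene. No gene was called by its brightest probe set on control (2.05%) or QH2 (2.29%). No member was called in the 6 heart diet comparisons by limma, in which 0% of all probe sets passed except for QH2 against Q10 at 6 months (0.0666%), and 1 to 8 of the 16 member probe sets had an unadjusted p under 0.05, against 4.71% to 11.1% of all probe sets. The 8 were in QH2 against Q10 at 14 months, where the share of all probe sets was 11.1%. In liver 1 of 6 genes was called higher, Vim at 1.25 ± 0.29 (adjusted p = 0.00538; 20.8% of all probe sets called), and the change was 2.94 ± 0.50 on Q10 (12.5% called) and not called on control (7.36%) or QH2 (2.35%). On Q10 the macrophage sum was 1841 to 3763 at 6 months and 5348 to 17080.0 at 14 months, and its part in the Vim change was not tested.

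In kidney at 14 months, QH2 and Q10 differed for S100b and Vim, where 6.04% of all probe sets were called. Over the 18 member probe sets, 1 was called higher and 2 lower on QH2. S100b gave 37.4, 89.6 and 35.4 on QH2 against 15.1, 0.35 and 5.88 on Q10, with control at 10.8, 59.5 and 15.1 (3.24 ± 0.75, adjusted p = 0.0183). The summed signal of 6 fat cell markers was 8228, 9661 and 7960.0 on the same QH2 arrays, 5643, 669 and 4238 on the Q10 arrays and 1870.0, 8040.0 and 2404 on control, and its part in the S100b difference was not tested. Vim gave 539, 768 and 725 on QH2 against 802, 2249 and 1162 on Q10 (-0.93 ± 0.25, adjusted p = 0.0367). Macrophage markers summed to 4090.0, 3009 and 4085 on QH2 and 4251, 14510.0 and 8566 on Q10. Both calls were lost without the second Q10 array (2.25 for S100b and -0.53 for Vim), and with the fit limited to these 2 groups (adjusted p = 0.205 and 0.285). S100b was also lost without the second QH2 array (2.82), and Vim without the third Q10 array (adjusted p = 0.0638) and without the first or the third QH2 array (-0.78 and -0.99).

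In liver at 14 months, Vim was higher on Q10 than on control or QH2. The signals were 236, 2013 and 1423 on Q10, 135, 166 and 189.7 on control and 155, 202 and 121 on QH2, so the first Q10 array stood far below the others yet above every control. Q10 against control gave 2.43 ± 0.50 (adjusted p = 0.00789; 6.21% of all probe sets called) and QH2 against Q10 -2.49 ± 0.50 (adjusted p = 0.00584; 9.74% called). These 2 comparisons share the Q10 arrays. Over the 14 member probe sets, 3 were called higher and 2 lower in Q10 against control. In QH2 against Q10, 0 were called higher and 3 lower. Slc1a2, which in liver gave 454, 457 and 476 on control, gave 291, 23.4 and 249 on Q10 (-1.93 ± 0.57, adjusted p = 0.0499) and 301, 486 and 387 on QH2. Macrophage markers moved with Vim: their summed signal was 5348, 16160.0 and 17080.0 on Q10, 1964, 888.5 and 2064 on control and 1370.0, 2074 and 1206 on QH2, and 9 of 13 were called higher in Q10 against control. Pericentral hepatocyte markers summed to 7355 to 17220.0 on Q10 and 18560.0 to 20320.0 on control, and the Actb 3′ to 5′ ratio was 1.59 to 3.04 on Q10 and 3.49 to 4.11 on control. With the Actb ratio as covariate no member was called in either comparison (Vim 1.16, adjusted p = 0.803, and -0.58, adjusted p = 1.00), nor was any with the fit limited to the groups compared. The Vim call against control was also lost without the second (1.86) or the third Q10 array (2.10), and the Slc1a2 call without any 1 of the 3 control arrays (-1.91 to -1.95) or without the second Q10 array (-0.79).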

How the data were processed

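Signals were read from the deposited value table of 72 arrays, 18 per tissue, which lists 45101 probe sets. Its values are linear intensities that the authors computed with GCOS, per the submitters' processing notes, and they are not levelled between arrays. After 64 control probe sets were left out, the intensities of each tissue were quantile normalised and put on a log2 scale with an offset of 1. Probe sets above the 40th percentile of mean signal, 27022 per tissue, were tested in limma 3.58.1 (R 4.3.3) with 1 mean per group of 3, a mean-variance trend and Benjamini-Hochberg adjustment over all of them, and called at an adjusted p under 0.05. Each tissue had 12 comparisons, and errors beside changes are standard errors. Probe sets were named from the platform annotation: 34945 had 1 symbol, 932 several and 9160 none. A gene is represented by its probe set with the greatest mean signal in the tissue. The 8 genes and the lists were chosen with earlier results of these data known. In brain, the change between durations is given for every member probe set above the filter, in the text or a figure. Diet differences and the other tissues rest mainly on the brightest probe set. Up to 6 called genes of smallest p are named from the astrocyte lists, and the 3 genes of greatest Pearson r as most like each. The fit was tested on simulated data drawn from the probe set means and within-group spreads of the 18 brain arrays. Changes were added to the simulated 6-month QH2 arrays, which were then compared with the simulated 6-month control arrays. Over 27022 probe sets the fit recovered 64 of 100 2-fold and 94 of 100 4-fold changes and made 9 false calls. Alternatives covered scaling, filter, trend, array weights, RNA integrity, samples in the fit, the replicate number and leaving out each array. The number of arrays limits the precision.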

Additional observations from a re-analysis of the deposited data

Results flagged for a closer look

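For Vim in liver the difference between QH2 and Q10 was itself different at 14 and 6 months: the log2 difference at 14 months minus that at 6 months was -2.856 (adjusted p = 0.045, limma), the only 1 of the member interactions of QH2 against Q10 to pass. The share of all probe sets called for this interaction was not counted, so the call has no background beside it. For the liver interaction of Q10 against control with duration, 630 of 27022 probe sets were called and no member. With the Actb ratio as covariate, the 14-month difference between QH2 and Q10 alone was -0.58 and not called. The interaction of QH2 against Q10 was not refitted with that covariate. In some pairs of tissues every array of a group lay on one side in one tissue and on the opposite side in the other, and these differences were not tested. The share of all probe sets with such opposite sides was not counted. For groups of 3 arrays, the share without overlap was counted in the brain diet comparisons only, at 9.84% to 13.2% of all probe sets. It was not counted for 14 against 6 months within a diet, nor in heart or liver. Between durations within a diet, 28.6% to 34.9% of all brain probe sets were called. From 6 to 14 months on the control diet, Aqp4 changed by 0.7601 in brain and -0.8785 in heart, and Slc1a2 by -0.124 in brain and 0.8995 in liver. The heart Aqp4 signal was dim (mean 24.8), and the brain Slc1a2 change was positive under the other scalings, up to 0.21. From 6 to 14 months on Q10, Gja1 changed by 0.2903 in brain and -0.3404 in heart. In QH2 against control at 14 months, Gja1 differed by 0.1894 in heart and -0.3805 in liver. None of these heart and liver changes was itself called by limma.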

How the results depend on the processing

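In brain, from 6 to 14 months averaged over diets, the 8 genes kept their direction and call in 70 of 72 combinations with other settings and in 144 of 144 with an array left out. The exceptions were Slc1a2 scaled to a common median (0.041, adjusted p = 0.582) and as deposited (0.27, adjusted p = 0.0659). On the control diet Slc1a2 then gave 0.13 and 0.21, and on QH2 0.0034 and 0.27. Members called numbered 8 with any array left out, 6 to 8 on the control diet, 5 to 7 on Q10 and 7 to 8 on QH2, and 0 in each brain diet comparison. The cause of the differences between settings was not tested.

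With another probe set, Gja1 turned to -0.12 (control -0.12, Q10 -0.19 and -0.41, QH2 -0.066), Slc1a3 to -0.16 and -0.13 (control -0.038 and -0.036, Q10 -0.033 and -0.17, QH2 -0.40 and -0.20) and Aqp4 to -0.022 (control -0.058, Q10 -0.21). As deposited, from 6 to 14 months averaged over the 3 diets, heart Aqp4 changed by 0.57 and Gja1 by 0.67.

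Counts of called probe sets in brain moved as follows. With the Actb ratio as covariate they were 9485 averaged, 4176 on the control diet (5 members), 0 for QH2 against control at 14 months and 2 for the QH2 interaction. Array weights gave 25 and 15 for the last 2, no trend 0 and 0, and the striatal covariate, chosen after seeing the data, 7 and 17. A common median gave 1 for QH2 against control and 1 for QH2 against Q10 at 14 months, and a fit of the groups compared gave 18 and 3. As deposited they were 4 and 2 for Q10 and QH2 against control at 6 months, 8 for QH2 against control at 14 months, 2 and 6 for QH2 against Q10 at 6 and 14 months, and 5 for the Q10 interaction. Leaving out an array gave 0 to 2 (Q10 against control) and 0 to 28 (QH2 against control, 28 without the third QH2 array) at 6 months, 0 to 55 (without the third control array) and 0 to 4 at 14 months, 0 to 15 and 0 to 14 for QH2 against Q10, and 0 to 2 and 0 to 20 for the interactions.

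In the averaged heart comparison the counts were 8856 (common median) and 21090.0 (as deposited, 6 members), with 1 member under the 60th percentile filter or no trend and 1 to 2 with an array left out. In the averaged kidney comparison members numbered 1 under the 60th percentile filter, 5 as deposited and 2 to 3 with an array left out. For kidney QH2 against Q10 at 14 months the counts were 3434 (array weights), 683 (no trend, 1 member), 62 (as deposited, 1 member) and 0 with 0 members in the groups compared, 1 member by common median or the 60th percentile filter, and 525 to 3088 with 0 to 2 members when an array was left out. Averaged liver gave 9115 (array weights), 2523 (as deposited), 4544 to 7356 and 1 to 2 members with an array left out. Liver Q10 against control at 14 months gave 12240.0 (array weights, 5 members), 989 (common median), 777 (no trend, 1 member), 820.0 (as deposited, 1 member), 0 and 0 members with the Actb covariate or the groups compared, 1 member with no filter, and 473 to 5411 with 0 to 2 members when an array was left out. Liver QH2 against Q10 gave 11862 (array weights, 4 members), 2 members by common median, 1534 (no trend), 1067 (as deposited), 0 and 0 members with the Actb covariate or the groups compared, and 766 to 5905 with 1 to 3 members when an array was left out.

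Replicate numbers did not pair the brain arrays: over 45 same-numbered pairs the median correlation of deviations was 0.00488 (-0.148 to 0.173). With the replicate block, brain gave 15235 probe sets and 8 members averaged, 0 probe sets for QH2 against control at 14 months, and liver Q10 against control 1 member. Dim probe sets, such as heart Aldoc and kidney S100b, are limited by signal near the floor.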
